A study of Saccharomyces cerevisiae with 9 samples.

Results

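A group of 10 histone genes of budding yeast is described here across the salt response of the laboratory strain BY4741. They were chosen by their feature IDs: HTA1 (YDR225W) and HTA2 (YBL003C) for histone H2A, HTB1 (YDR224C) and HTB2 (YBL002W) for H2B, HHT1 (YBR010W) and HHT2 (YNL031C) for H3, HHF1 (YBR009C) and HHF2 (YNL030W) for H4, HTZ1 (YOL012C) for the variant H2A.Z and HHO1 (YPL127C) for the linker histone H1. No measured value entered this choice. They made up 10 of the 6942 features of the table, and all 10 had a value on each of the 9 arrays.

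Each array compared cDNA from a culture in rich YPD medium at 30°C after 30 min in 0.7 M NaCl with cDNA from unstressed cells of the same strain. By the array titles the unstressed cells were taken before salt, so salt and 30 min of further growth cannot be told apart. There were 2 arrays of ckb12, a BY4741 strain lacking CKB1 and CKB2, the genes for the regulatory subunits of protein kinase CK2, and 7 arrays of BY4741 wild type (WT). The labels place 1 ckb12 and 1 WT array in each of sets A and B, put 1 WT array in each of sets C, D and E, and give WT replicates 1 and 2 no letter. Whether the 2 ckb12 arrays came from separate clones is not stated in the sources used here. Where the labels do not say that replicates are separate cultures, p-values measure only the spread between arrays, which may be technical.

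Nucleosomes wrap DNA around an octamer that holds H2A, H2B, H3 and H4 as pairs, and linker H1 binds where the DNA enters and leaves. In budding yeast each core histone is encoded by a pair of genes, arranged as divergent couples that share a promoter: HTA1 with HTB1, HTA2 with HTB2, HHT1 with HHF1, and HHT2 with HHF2. The copies for H3 encode the same protein, as do those for H4. Their transcripts are made mainly in S phase, when Spt10, Spt21 and the G1/S factors activate them, and outside S phase the HIR complex with Asf1 and Rtt106 represses every couple except HTA2 with HTB2. HTZ1, whose product replaces H2A at many promoters, is not confined to S phase.

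Values are log2 ratios, salt-treated over unstressed, so -1 stands for a halved signal relative to the array's median feature. Array medians lay between -0.00118 and 0.00016, single arrays held between 6205 and 6812 values, and 6129 features had a value on all 9. The ratios of CKB1 were 0.97 and 0.44 in ckb12, outside the WT range of -0.88 to -0.38, and CKB2 had 0.82 and 0.71, outside -0.47 to 0.10. A ratio within a strain cannot show a deletion, but both genes separated the arrays as labelled. The labels give the treated sample the same dye on every array, while the methods tell of swapped dyes on some samples of the study and of a shared orientation for paired mutant and WT arrays, and a dye effect was not tested. Signal over background is unknown because intensities were not used here, and precision is limited by how few arrays there are. Paralogous histone genes are similar in sequence, but their sequences were not compared here, and how far each feature also reports its copy was not tested.

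The transcripts of all 10 histone genes were lower after salt in WT. The mean over the 8 core genes fell by 0.83 on the log2 scale in WT (SD 0.19, n = 7 arrays), and all 10 genes were below 0 on all 7 arrays, as were 36.5% of features. In limma with Benjamini-Hochberg adjustment over 6129 features, 10 of 10 histone genes passed an adjusted p of 0.05 as lower, against 40.6% of all features. Adjusted p-values ran from 1.38e-07 for HHO1 to 0.000442 for HTZ1. The decreases were moderate: 2 of 10, HTA1 and HHO1, averaged at least 1 on the log2 scale, against 16.2% of all features called lower with that minimum. In bulk cultures, fewer cells in S phase and less histone mRNA per cell cannot be told apart.

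Among the H2A genes, HTA1 stood at -0.35 and -0.41 in ckb12, against a lowest, median and highest WT value of -1.26, -1.11 and -0.68. Both mutant values therefore lay above every WT value, and the signal of this gene fell by 51.0% on average in WT. HTA2 had -0.56 and -0.38 in ckb12, against -1.36, -0.61 and -0.43 in WT. Here the strains overlapped, and the lowest WT value, on WT replicate 12, stood well below the others.

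Both H2B genes fell in both strains. HTB1 had -0.61 and -0.57 in ckb12, just above the WT values of -1.06, -0.92 and -0.62 (lowest, median and highest). HTB2 had -0.85 and -0.71 in ckb12, within the WT values of -1.02, -0.73 and -0.46. The mutant values of HTB1 lay narrowly above the WT range, whereas those of HTB2 sat inside it.

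The genes for H3 differed most between copies in WT. HHT1 had -0.49 and -0.42 in ckb12, above the WT values of -1.25, -0.79 and -0.73. HHT2 had -0.56 and 0.09 in ckb12, against -0.93, -0.46 and -0.22 in WT. HHT2 was the core gene with the smallest mean decrease in WT, -0.51 ± 0.25 (SD, n = 7), and ckb12 replicate 2 held the single positive value of any histone gene on the 9 arrays.

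The H4 genes had the widest WT spread, with SDs of 0.31 for HHF1 and 0.37 for HHF2 (n = 7). HHF1 had -0.67 and -0.48 in ckb12, against -1.56, -0.85 and -0.62 in WT, and HHF2 had -0.85 and -0.45 in ckb12, against -1.47, -0.89 and -0.36 in WT. For both genes the lowest value was again that of WT replicate 12, and the strains overlapped.

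HTZ1 and HHO1 bracketed the core genes in WT. HTZ1 had -0.40 and -0.25 in ckb12, against -0.85, -0.44 and -0.19 in WT, the smallest mean decrease of the 10 genes in WT (-0.46 ± 0.21, SD, n = 7). HHO1 had -1.26 and -1.75 in ckb12, against -1.66, -1.24 and -1.06 in WT, the largest mean decrease in either strain (-1.50 ± 0.35 in ckb12, n = 2, and -1.27 ± 0.20 in WT, n = 7, SD). In WT, 12.3% of all features had a lower mean than HHO1 and 31.2% a lower mean than HTZ1.

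**Figure D1:**
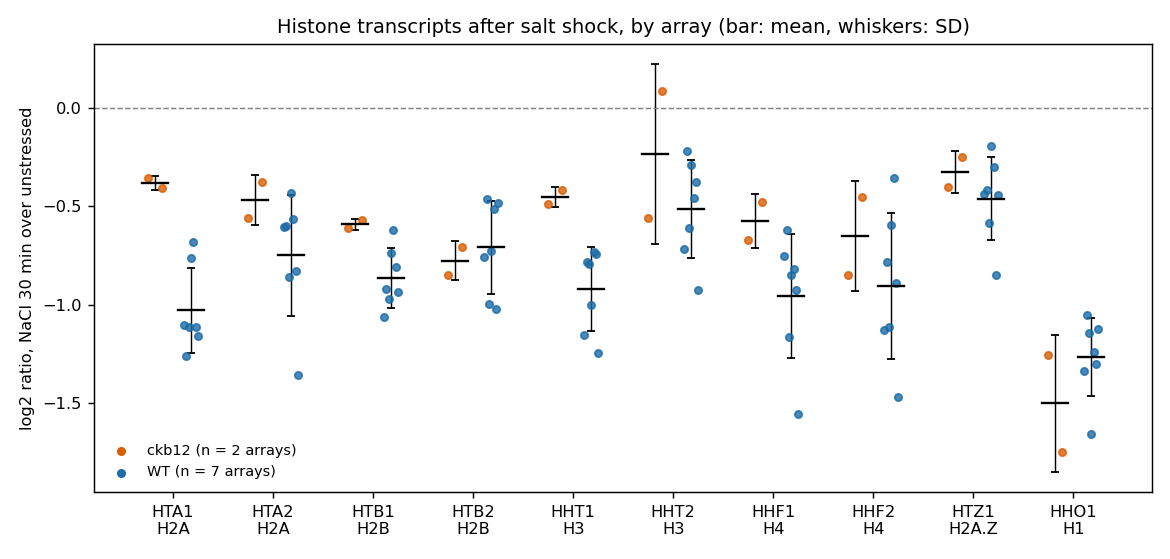
Log2 ratio, salt-treated over unstressed, of each of the 10 histone genes on 2 ckb12 and 7 WT arrays (points), with group means (bars) and SDs (whiskers). The ckb12 points of HTA1, HTB1 and HHT1 lie above all WT points, while HHO1 has the lowest mean in both strains.

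The core genes also differed as a group between WT arrays. The mean over the 8 core genes was -0.62 and -0.42 on the ckb12 arrays and ran from -1.14 to -0.59 on the WT arrays. The lowest WT mean was that of replicate 12, whose log2 ratios had the largest median absolute deviation of all arrays (0.72, against 0.59 to 0.67 on the other arrays). With this deviation made equal on all arrays, replicate 12 had a core mean of -0.996 and WT replicate 8 one of -1.003, so replicate 12 was no longer the lowest. HTB2 did not take part, at -0.49 on replicate 12, near the top of its WT range. HTA1 and HTB1, at -1.16 and -0.94 there, lay near their WT medians of -1.11 and -0.92. The source label of replicate 12 has the word mutant, and the array was kept as WT by its title and genotype.

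Most histone genes also fell in ckb12. With the spread shared between strains, 7 of 10 passed as lower in limma with Benjamini-Hochberg adjustment, against 35.7% of all features. HHO1 (adjusted p 9.87e-06) and HTB2 (0.00122) gave the lowest adjusted p-values (limma). The 3 genes that did not pass were HTA2 at -0.47 (adjusted p 0.0501), HTZ1 at -0.32 (0.0734) and HHT2 at -0.23 (0.302, limma). At least 1 on the log2 scale was reached by 1 of 10, HHO1, against 19.2% of features called lower with that minimum. Without ckb12 replicate 1 or 2 the estimate was that of the lone array. It was -1.75 or -1.26 for HHO1 and 0.09 or -0.56 for HHT2, the genes with the largest and smallest mean decrease in ckb12. No call is given for these fits, in which the lone array is assumed to vary like WT. HTA1 lost its call without WT replicate 1, 8 or 11 (adjusted p 0.0522 to 0.0578), and HTA2 gained one without WT replicate 9 or 12 (0.0483 and 0.00686, limma). HTZ1 gained one without WT replicate 11 (adjusted p 0.036, limma).

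The difference between ckb12 and WT asks whether the CK2 regulatory subunits alter this response. No histone gene passed: limma with Benjamini-Hochberg adjustment called 0 of 10, against 1.14% of all features. At an unadjusted p below 0.05, 2 of 10 were higher in ckb12 (HTA1 and HHT1), against 4.6% of features, and 0 of 10 were lower, against 10.7%. By a rule that the methods give for other strains in duplicate, in which both mutant values lie outside the WT mean ± 2 SD, taken here over 7 WT arrays, HTA1 and HHT1 also stood higher, 2 of 10 against 2.06% of features. For 8 of 10 genes the ckb12 mean lay above the WT mean, as it did for 41.2% of features. These genes were read on the same arrays and are not independent.

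HTA1 showed the widest gap. Its mean was -0.38 ± 0.04 in ckb12 (SD, n = 2) and -1.03 ± 0.22 in WT (SD, n = 7), a difference of 0.65 with a 95% interval of 0.28 to 1.02 and an adjusted p of 0.0968 (limma). The gap was 0.76 in set A and 0.36 in set B. HHT1 averaged -0.45 ± 0.05 in ckb12 and -0.92 ± 0.21 in WT, a difference of 0.47 (95% interval 0.10 to 0.83, adjusted p 0.206, limma), with 0.30 in set A and 0.59 in set B. Over the alternatives, the lowest Benjamini-Hochberg adjusted p (limma) was 0.0656 for HTA1 and 0.160 for HHT1, so neither passed by this measure.

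The intervals of the other genes all held 0. HHF1 differed by 0.38 (95% interval -0.10 to 0.86) and HTB1 by 0.27 (-0.03 to 0.58), whereas HHO1, the linker gene, differed by -0.24 (-0.63 to 0.16). HTB2 had the smallest difference, -0.07 (-0.46 to 0.32), and it changed sign to 0.09 over sets A and B. Both ckb12 values lay above all WT values for 3 of 10 genes (HTA1, HTB1 and HHT1), against 5.32% of features, and below them for 0 of 10, against 12% of features.

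When limma took sets as a random block, it called 0 of 10 genes, against 1.55% of features. A fit of the paired arrays alone, blocked by set, called 0 of 10 genes, against 0.0152% of features. The paired fit has 1 residual degree of freedom. The differences were 0.56 for HTA1, 0.44 for HHT1 and 0.43 for HHF1, and these 3 of 10 had an unadjusted p below 0.05, as did 6.14% of features in the same direction. In both sets 8 of 10 genes were higher in ckb12, against 25.4% of features. HHO1 was lower in both, with -0.11 for set A and -0.09 for set B.

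**Figure D2:**
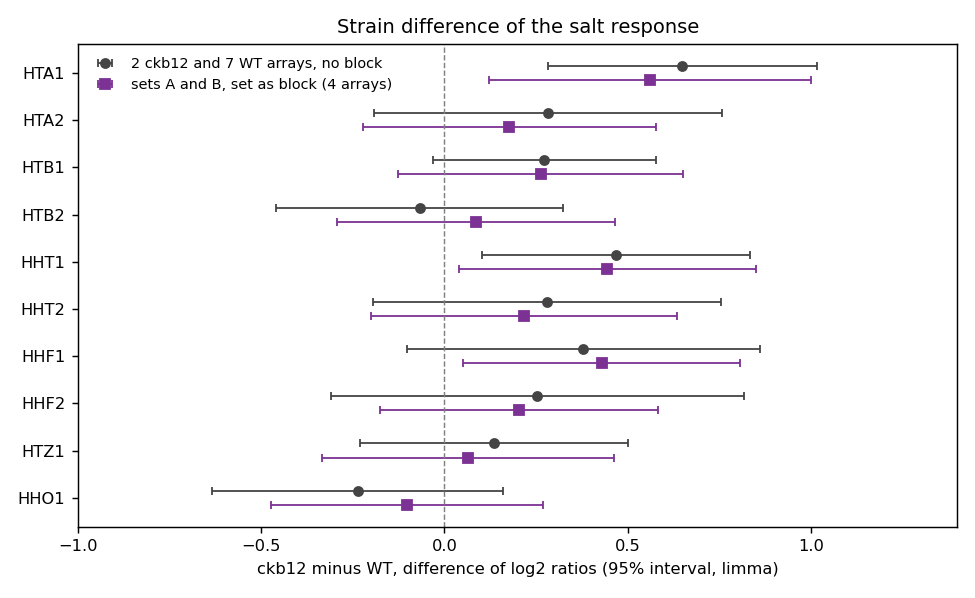
Difference of log2 ratios, ckb12 minus WT, for each histone gene with 95% intervals from limma, over 2 ckb12 and 7 WT arrays without a block (circles) and over the paired arrays alone, blocked by set (squares). The intervals of HTA1 and HHT1 lie above 0 in both fits, although their adjusted p-values did not pass 0.05.

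The set letter is the only batch in the labels. Between the 5 WT arrays with a letter and the 2 without, limma called 0 of 10 histone genes, against 0.457% of features, and 0 of 10 had an unadjusted p below 0.05, against 13.2% of features. The largest difference was -0.38 for HHF1 (95% interval -0.85 to 0.10), so WT batches could differ by as much as that interval allows.

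Copies of a histone and partners of a divergent couple were then compared within each array, where an array's centring cancels. The difference in ratio shows unequal change, not unequal abundance. An exact 2-sided sign-flip permutation test over the 7 WT arrays, with Benjamini-Hochberg adjustment over 9 comparisons, passed for none of them, and 4 of 9 had an unadjusted p below 0.05. HHT1 minus HHT2 was 0.07 and -0.51 in ckb12 and averaged -0.41 ± 0.18 in WT (SD, n = 7), below 0 on all 7 WT arrays. Its p of 0.0156 is the smallest that 7 arrays allow in this exact permutation test, and its adjusted p was 0.0703. Over 9 comparisons this smallest p passes adjustment only if several comparisons reach it. HHT1 thus had the larger decrease of the H3 copies on every WT array.

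Copies of H2A and partners of the HHT2 couple also gave differences below that unadjusted threshold. HTA1 minus HTA2 was 0.20 and -0.03 in ckb12, against a mean of -0.28 ± 0.28 in WT (SD, n = 7), with 6 of 7 WT arrays below 0 (exact permutation p 0.0469, adjusted 0.105). HHT2 minus HHF2, the partners of a single couple, was 0.29 and 0.54 in ckb12 and 0.39 ± 0.23 in WT (SD, n = 7), with 6 of 7 WT arrays above 0 (exact permutation p 0.0312, adjusted 0.0938). The H2B copies and the H4 copies showed no such difference, with means of -0.16 ± 0.26 and -0.05 ± 0.27 in WT (SD, n = 7).

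HTA1 and HTB1, which share a promoter, changed unequally in opposite directions in the strains. HTA1 minus HTB1 was 0.26 and 0.16 on the ckb12 arrays, against a lowest, median and highest value of -0.34, -0.14 and -0.03 on the WT arrays. HTA1 therefore fell less than its partner on both ckb12 arrays and more than its partner on all 7 WT arrays. In WT the exact permutation p was 0.0156 (adjusted 0.0703). The strain difference of 0.38 gave an exact 2-sided permutation p of 0.0556, the smallest that 36 splits of 2 against 7 arrays allow, and 0.2 after adjustment over 9 comparisons, so this design could not reach 0.05.

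The 6 genes of the HIR-repressed couples were set against HTA2 and HTB2, which the HIR complex does not repress. The difference of their means was 0.11 and 0.17 in ckb12 and averaged -0.14 ± 0.15 in WT (SD, n = 7), with 6 of 7 WT arrays below 0 (exact permutation p 0.0781, adjusted 0.141). The couples thus could not be separated by this property in WT.

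HTZ1 and HHO1 were each compared with the mean of the 8 core genes on the same array. HTZ1 minus the core mean was 0.22 and 0.17 in ckb12 and averaged 0.37 ± 0.22 in WT (SD, n = 7), above 0 on 6 of 7 WT arrays. HHO1 minus the core mean was -0.64 and -1.34 in ckb12 and averaged -0.44 ± 0.32 in WT (SD, n = 7), below 0 on 6 of 7 WT arrays. In WT both had an exact 2-sided permutation p of 0.0312, unchanged by adjustment over 2 comparisons. The variant gene thus fell less and the linker gene more than the mean of the core genes. Neither passed with any single WT array left out, where both adjusted p-values were 0.0625. The array on the other side of 0 was WT replicate 11 for HTZ1 and WT replicate 12 for HHO1. The core gene HHT2 was close to HTZ1, with WT means of -0.51 for HHT2 and -0.46 for HTZ1. In ckb12 the mean was -0.23 for HHT2 and -0.32 for HTZ1, so the smaller decrease was not particular to the variant.

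**Figure D3:**
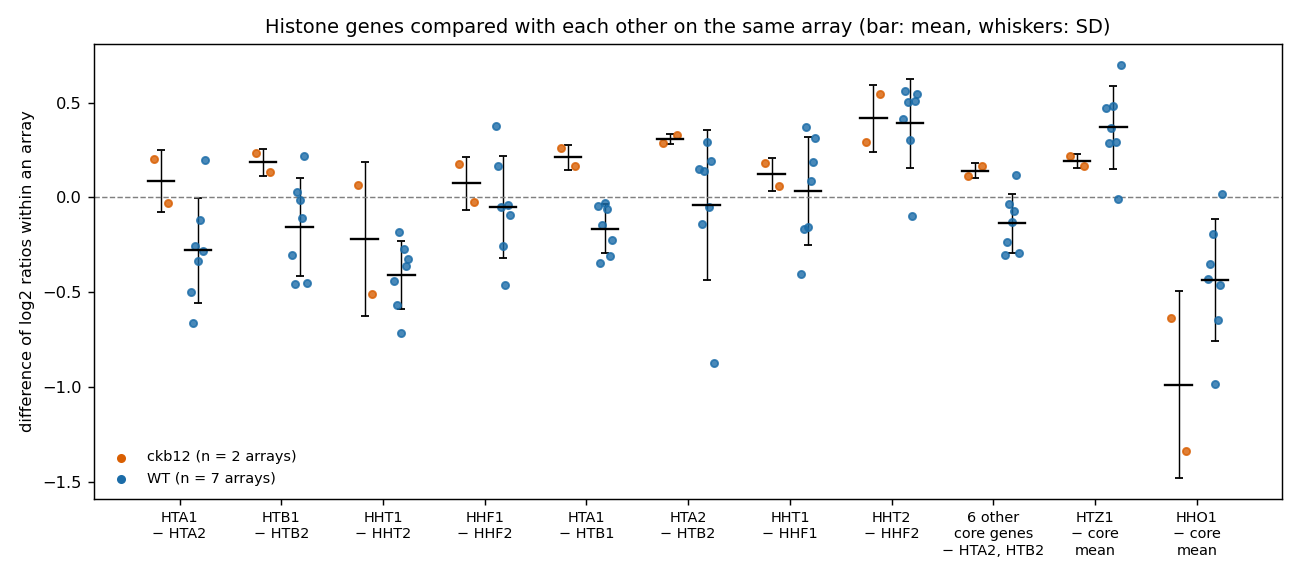
Differences of log2 ratios between histone genes on the same array, for 2 ckb12 and 7 WT arrays (points), with means (bars) and SDs (whiskers). HTA1 minus HTB1 is above 0 on both ckb12 arrays and below 0 on all WT arrays, and the low WT point of HTA2 minus HTB2 is replicate 12 at -0.87.

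Across all 9 arrays the core genes other than HTB2 mostly varied together. Pearson's r between pairs of core genes ran from -0.27 to 0.92 with a median of 0.60, and 24 of 28 pairs were above 0. HTA2 with HHF1 (0.92) and HTA1 with HTB1 (0.89) were the closest pairs. HTB2 stood apart, with r from -0.27 (HHT1) to 0.13 (HHF2) to the other core genes. With HTA2, its partner at a shared promoter, r was -0.07. HHO1 ran against most core genes, with r below 0 for 7 of 8 and a median of -0.53, whereas HTZ1 had a median of 0.45. These values describe 9 arrays that mix the strains and share each array's scale, and they carry no test.

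The 5 other features most like the core mean over the 9 arrays were RPL9A and RPL37B, genes for proteins of the large ribosomal subunit (r = 0.99 and 0.96), ALG13, for an enzyme of N-glycosylation (0.96), MET14, for adenylylsulfate kinase (0.96), and DFR1, for dihydrofolate reductase (0.95). Their mean ratios differed from those of the histones, from -1.84 for RPL37B to 0.68 for ALG13 in ckb12 and from -2.20 to 0.20 for the same genes in WT. With 9 arrays, 44 of 6119 features reached an r of 0.9, so the likeness is not particular to these 5.

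Genes that regulate histone transcription were read as a list of 12. In WT 6 fell and 2 rose (limma, adjusted p below 0.05), against 40.6% of features lower and 36.5% higher, and the median ratio was -0.38 in ckb12 and -0.20 in WT, beside -0.09 and -0.04 over all features. The largest decrease was that of SPT21, which activates histone genes with Spt10, at -1.51 ± 0.17 in ckb12 (SD, n = 2) and -0.996 ± 0.45 in WT (SD, n = 7). The WT spread of SPT21 ran with the set letter: the 5 arrays with a letter were all lower than the 2 without, which had -0.42 each, although the difference of -0.81 did not pass (adjusted p 0.142, limma). YTA7, whose product binds chromatin at histone genes, had the largest rise in WT, with means of 0.12 in ckb12, where it did not pass, and 0.29 in WT. SPT10 itself averaged 0.05 in WT and did not pass (adjusted p 0.506, limma). Among the repressors HIR1 fell by 0.71 and ASF1 by 0.93 on the log2 scale in WT. HIR3 and HIR2 fell less, by 0.36 and 0.26. HPC2 and RTT106 did not pass in WT, at -0.13 and -0.12 (adjusted p 0.205 and 0.181, limma). SPT10 and these repressors were picked for mention after their values were seen.

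Of 14 histone chaperones and carriers, 9 fell and 3 rose in WT, against 40.6% of features lower and 36.5% higher. KAP123, an importin that carries H3 and H4 into the nucleus, averaged -2.46 in ckb12 and -2.03 in WT, and HAT1, the acetyltransferase of newly made H4, averaged 0.49 in ckb12 and 0.58 in WT. Of 15 genes of the SWR1 complex, which exchanges H2A for H2A.Z, and the H2A.Z chaperone, 6 fell and 5 rose, shares near the 40.6% and 36.5% of all features. Their extremes were SWC7 at -1.94 in ckb12 and -1.69 in WT and VPS71 at 0.71 in ckb12 and 0.65 in WT. The median ratios were -0.52 in ckb12 and -0.29 in WT for the chaperones and -0.19 and -0.08 for the SWR1 list, so neither list matched the 10 histone genes (-0.52 in ckb12 and -0.89 in WT) in WT.

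Most DNA replication genes fell as well. Of 30, 26 fell and 1 rose in WT, beside 40.6% and 36.5% of all features, with medians of -0.74 in ckb12 and -0.51 in WT. POL12, a subunit of DNA polymerase alpha, was lowest at -2.05 in ckb12 and -1.74 in WT, and RFA1, a subunit of the single-strand binding protein RPA, had the only rise, 0.28 in WT, beside a mean of 0.14 in ckb12. The list's median was lower in ckb12 than in WT while that of the histone genes was higher, a contrast that was not tested. Both ckb12 arrays carry a set letter. Within WT the median set letter difference of the replication genes was -0.31, beside a median strain difference of -0.20. How far the set letter enters the contrast was not tested. No gene of this or the other lists passed in the strain difference (limma, 0 of 93). At an unadjusted p below 0.05, 13 of the 93 were lower in ckb12 and 1 was higher, against 10.7% and 4.6% of features.

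Of 21 histone modifying enzymes, 8 rose and 7 fell in WT, beside 36.5% and 40.6% of all features, with medians of -0.03 in ckb12 and -0.07 in WT. JHD2, an H3K4 demethylase, averaged 0.73 in ckb12 and 0.76 in WT, and SAS2, an H4K16 acetyltransferase, averaged -1.71 in ckb12 and -1.16 in WT. CSE4, which encodes the H3 variant of centromeres, had -0.73 and -0.35 in ckb12, against -1.23, -0.59 and -0.32 in WT, a mean decrease of -0.63 ± 0.31 in WT (SD, n = 7, adjusted p 0.000297, limma). It fell in ckb12 too, by the same test.

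The genes next to the histone loci did not all share the decrease of the histone genes. In the R64 annotation the partners of each couple are neighbours with no other gene between them. Of the 12 protein-coding genes that flank the 6 loci, 8 had a WT mean below 0 and 4 above it. These means ran from -2.76 for NAN1 beside HHO1 to 2.03 for CRF1 beside HTB1. Their median was -0.30, beside -0.89 for the 10 histone genes and -0.04 over all features, so a WT mean below 0 was common. These flanking genes were examined after the data were seen, and a value set by the neighbouring locus was not tested.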

How the data were processed

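The authors hybridised dye-labelled cDNA of treated and unstressed cells to 2-colour tiled NimbleGen arrays, and the deposited values are their normalized log2 ratios, 1 per feature and array. The log base comes from the study's methods and the direction from the labels, neither from the table. Background correction, the combination of tiles and the array's genome build are not given in the sources used here, so no coordinates are printed. Symbols and neighbours came from a RefSeq table of R64, in which 6023 IDs matched.

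Responses and differences were fitted in R 4.3.3 with limma 3.58.1 (lmFit, eBayes) over 6129 features with a value on all 9 arrays, or 6600 in the fit of sets A and B, with Benjamini-Hochberg adjustment over all features. Within-array differences used exact sign-flip permutation tests. Scripts were tested on simulated data. Alternatives changed scaling, missing values, features, variance model, threshold, block and arrays. WT replicate 12 has "mutant" in its source label for both channels and was kept as WT by its title and genotype.

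All 10 members are named, and of each list the largest rise and fall seen on all 7 WT arrays. The members and lists were chosen with earlier results of these data known, and the lists were written from memory. Pairing by set rests on the labels. Same-set deviations from group means correlated at -0.0882 in set A and -0.0152 in set B over features, and the consensus correlation within sets was 0.1774.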

Additional observations from a re-analysis of the deposited data

Results flagged for a closer look

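Some values stood apart from the rest of their group. HTA2 minus HTB2 was -0.87 on WT replicate 12, whereas the next WT value was -0.14. HHT2 minus HHF2 was -0.0995 on WT replicate 10, and the next WT value was 0.30. KAP123 had a ratio of -1.43 on WT replicate 12, against -2.02 for the next array. In 33 groups of 7 WT values 3 held such a value, and chance marks about 1 in 20.

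HTA1 minus HTB1 differed by 0.376 between ckb12 and WT, with every ckb12 array above 0 and every WT array below it. The exact 2-sided permutation p was 0.0556, the smallest this design allows.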

How the results depend on the processing

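The decrease of the 10 histone genes in WT kept its direction in all 150 values from varying 1 choice, and the call was lost in 8 of them, all when a log2 change of at least 1 was required. That left 2 of 10 genes in WT and 1 of 10 in ckb12. Leaving out single arrays gave 10 calls in WT, between 3 and 8 in ckb12, and 0 in the strain and set letter differences. In ckb12, quantile normalization left 6 calls, without that of HTA1, and the other scalings, feature sets and variance models and the q-value gave 7 to 9. The rule of WT mean ± 2 SD raised the strain count to 2. The replicate block by set, fixed or random, left the strain count at 0, with 0.56 (fixed) and 0.63 (random) for HTA1. WT and ckb12 arrays both have numbers 1 and 2, but the sets pair other arrays, so the numbers were not used for pairing.

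Of HTZ1 and HHO1 against the core mean, 0 of 2 passed with single WT arrays left out (0 in every fit) or with the 5 set-labelled WT arrays (0), too few for this exact test to pass. The 9 paralogue and locus comparisons stayed at 0.

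These signs turned. HTB2 in the strain difference became 0.0857 over sets A and B, with and without the replicate block. With single arrays left out, the range was -0.56 to 0.0895 for HHT2 in ckb12, and in the strain difference -0.14 to 0.0036 for HTB2, -0.0436 to 0.60 for HHT2 and -0.48 to 0.0112 for HHO1. In the set letter difference it was -0.29 to 0.0078 for HTB2, -0.12 to 0.25 for HHT1, -0.31 to 0.18 for HHT2, -0.10 to 0.25 for HHF2, -0.12 to 0.0483 for HTZ1 and -0.24 to 0.0451 for HHO1. In WT it was -0.12 to 0.0182 for HHF1 minus HHF2, -0.0972 to 0.0977 for HTA2 minus HTB2 and -0.0230 to 0.11 for HHT1 minus HHF1. The minimum change of 1 left, in WT, 0 regulators, 2 chaperones, 1 SWR1 gene, 9 replication genes and 2 modifiers, against 1761 of 6129 features.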
